A study of Homo sapiens with 8 samples.

Results

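The MYB family consists of 3 transcription factor genes, MYB, MYBL1 and MYBL2, and its transcripts were followed in the total RNA and in the Ago2-bound RNA of ST486 cells with and without ectopic miR-155. Member probes were all non-control array probes whose RefSeq identifier belongs to 1 of these genes. This gave 6 of 41000 probes: 1 for MYB (NM_005375), 4 for MYBL1 (NM_001080416) and 1 for MYBL2 (NM_002466). Of these, 5 were among the 15529 probes kept after filtering, because 1 MYBL1 probe was detected in too few channels and differed too much between dyes.

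ST486 is an established cell line from Burkitt lymphoma, a germinal centre B-cell tumor. All cells had been transduced with the retroviral vector MXW-PGK-IRES-GFP, and GFP-positive cells were sorted to check the miRNA overexpression. EV-ST486 cells carried this vector empty, and miR-155-ST486 cells carried it with the miR-155 precursor. From each, RNA was prepared from the total (T) fraction and from the fraction immunoprecipitated (IP) with an Ago2 antibody, which pulls down miRNAs together with the transcripts they hold, and each fraction received either dye, Cy3 or Cy5, in turn. IP and T were then hybridized against each other on dye-swapped 2-colour arrays. The 4 RNA samples thus gave 8 channels on 4 arrays, with n = 1 per condition. The spread between the labellings of a sample is labelling and hybridization error, not variation between cultures, and no test was possible. The vectors lay on different slides (2 slides, 0 with both vectors), so slide and vector cannot be told apart. An IP without the Ago2 antibody was not analysed here, and the level of miR-155 itself is not read by these mRNA probes.

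MYB family proteins bind DNA through repeats of the Myb domain. MYB drives the proliferation of haematopoietic progenitors and early B-cell development, and its mRNA is a well known target of miR-150. MYBL1, also called A-MYB, is expressed in germinal centre B cells and in male germ cells. MYBL2, or B-MYB, is present in nearly all dividing cells, where it joins the MuvB complex and, with FOXM1, switches on the genes of late cell cycle phases.

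A miRNA guides Ago2 mainly through its seed, so the sequence that the ectopic construct adds to Ago2 is given here with bases 2 to 8 in capitals, as listed by RefSeq (GRCh38.p14, chr21:25573983-25574006, plus strand):
hsa-miR-155-5p: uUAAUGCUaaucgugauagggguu
The DNA letters of the strongest kind of seed match, complementary to the capitals and followed by A, are AGCATTAA. Of 2370 mature miRNA names in the table, 1 carries this seed. The 3′UTRs of the family were not used here, so no value below says whether a member has such a site.

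Markers fitted the labelled cell type in part. The B-cell markers CD22, CD79A, CD79B and MS4A1 were detected in all 4 total channels and PAX5 in none. The germinal centre marker MME was detected in all 4, and no probe name matched BCL6. None of the 3 T cell markers was detected, and their processed signals summed to between 64.9 and 99.1. The number of detected probes ranged from 14094 to 22161 per channel and was lower in Cy5 than in Cy3 for each of the 4 RNA samples. No probe was saturated.

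MYB was enriched in the IP fraction of both cell populations. Its normalized signal (scanner intensity after quantile normalization over the 8 channels) in EV-ST486 total RNA was 24296 in Cy3 and 27152 in Cy5. In EV-ST486 IP RNA it was 115134 and 114209. Every IP channel lay far above every T channel. In miR-155-ST486 total RNA the signal was 24538 and 25279, and in miR-155-ST486 IP RNA it was 178234 and 161775, the highest values of the series for this probe. The probe was detected in all 8 channels. The order of the levels was therefore miR-155 IP, EV IP, and then the T fractions, whose labellings overlapped. The IP/T ratio was 4.46 in EV-ST486 cells, with 4.70 on the array with T in Cy3 and 4.24 on the array with IP in Cy3, and 96.4% of the kept probes had a lower ratio. In miR-155-ST486 cells it was 6.82 (6.59 and 7.05 on the 2 arrays), above 98.1% of the kept probes.

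MYBL1 was represented by 4 probes, which did not give the same picture. The brightest, called probe 1 here, was detected in all 8 channels, with a signal in EV-ST486 total RNA of 400.3 in Cy3 and 407.5 in Cy5. In EV-ST486 IP RNA it reached 3821 and 6772, so the labellings of this sample differed by 1.77-fold. In miR-155-ST486 cells the T signals were 399 and 461 and the IP signals 4880 and 4973. The IP channels of both vectors overlapped, as did the T channels of both, and every IP channel was above every T channel. The IP/T ratio of this probe was 12.6 in EV-ST486 cells (16.9 with T in Cy3, 9.38 with IP in Cy3) and 11.5 in miR-155-ST486 cells (12.5 and 10.6), in each case above 99.3% of the kept probes. The size of these ratios depended on the background correction. With normexp, which models each spot as signal plus local background and here added an offset of 50, they ranged from 1.68 to 6.21 in EV-ST486 cells and, for the miR-155-ST486 cells, from 2.61 to 8.22.

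The remaining MYBL1 probes were dim. Probe 2 had a signal of 158 and 198 in EV-ST486 IP RNA against 23.9 and 18.0 in total RNA, where 1 of the labellings was detected, which gives an IP/T ratio of 8.51 (8.26 and 8.77 on the arrays). This ratio fell below 2 with normexp correction, to between 1.04 and 1.8. In miR-155-ST486 cells its IP signal was 214 and 174, while its T signal, 22.5 and 37.3, was not well above background in either labelling. Only a bound was therefore available there. On normexp-corrected levels with high local backgrounds replaced, followed by loess and Aquantile (which even out the dyes within an array and the mean brightness between arrays), IP was at least 1.49-fold higher than T, taking for T the probe's own level, which was above the dimmest level well above background. The bound moved with the correction, since the same levels without that replacement gave 1.16, and 1.14 with quantile normalization. Probes 1 and 2 thus had normalized IP signals above T signals in every channel, with a size that rested on the background correction.

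Probe 3 was detected in the 4 Cy3 channels only. In EV-ST486 cells its IP signal, 90.0 in Cy3 and 59.0 in Cy5, overlapped its T signal of 44.9 and 63.7, so that IP/T was 1.36 (1.32 and 1.41). In miR-155-ST486 cells the IP signal, 96.5 and 87.8, was above the T signal of 42.0 and 25.9, so that IP/T was 2.79 (2.09 and 3.72). From Cy3 alone, the dye in which this probe was detected, IP/T was 2.01 (EV) and 2.30 (miR-155). From Cy5 alone it was 0.93 and 3.39, so the difference between the vectors rested mainly on undetected signals. Probe 4, the member removed by the filters, was detected in 1 channel, the Cy3 labelling of miR-155-ST486 IP RNA at 44.1, while its other labelling read 10.2. Its other 6 channels lay between 10.1 and 14.9, and neither fraction of EV-ST486 cells was above background, so no IP/T ratio could be given there. The position of the probes on the MYBL1 transcript was not analysed here.

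MYBL2 had the opposite pattern, with lower signals in the IP than in the T fraction. In EV-ST486 cells the T signal was 11928 in Cy3 and 9036 in Cy5, and the IP signal was 6873 and 4327. In miR-155-ST486 cells the T signal was 9504 and 7022, and the IP signal 5331 and 5160. All 4 IP channels lay below all 4 T channels, although the lowest T signal, 7022, was close to the highest IP signal, 6873. The T labellings of both vectors overlapped, and so did the IP labellings. The IP/T ratio was 0.53 in EV-ST486 cells (0.36 and 0.76 on the arrays) and 0.64 in miR-155-ST486 cells (0.54 and 0.76), at percentiles 12.0 and 23.9 of the kept probes, whose median ratios were 0.90 and 0.88.

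**Figure D1:**
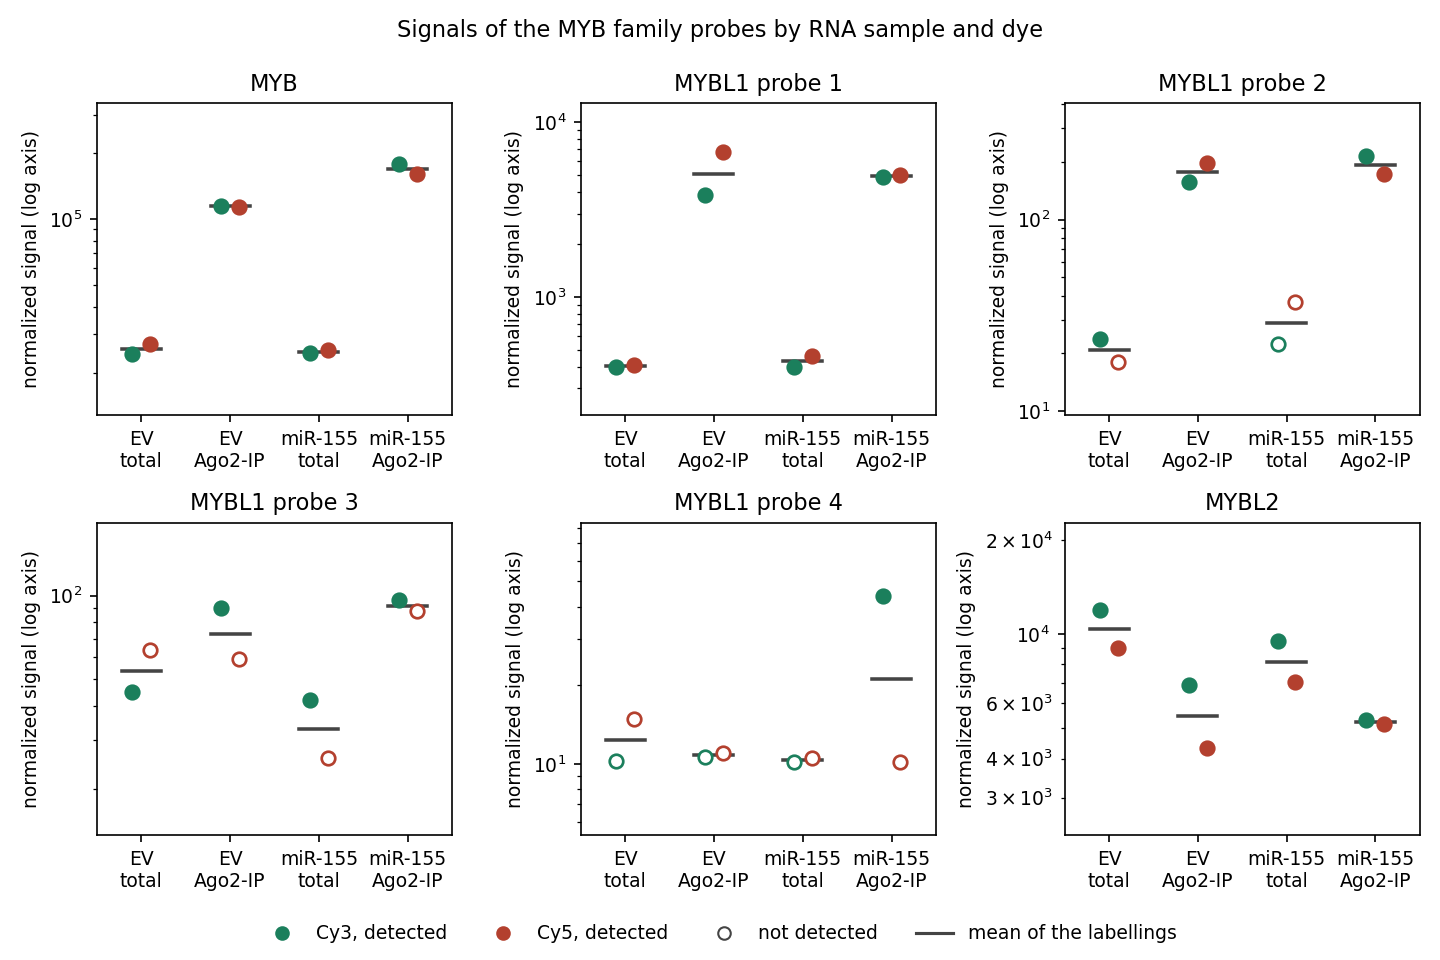
Normalized signal (log axis, with its own range in each panel) of the 6 MYB family probes in the 4 RNA samples, labelled with Cy3 (green) and Cy5 (red). Filled points were detected, open points were not, and lines mark the mean of the log2 signals of the labellings. MYB and MYBL1 probes 1 and 2 were higher in each IP than in each T channel, and MYBL2 was lower.

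Set against all probes, the family was represented on both sides of the distribution. Of the 5 kept member probes, 3 were enriched by 2-fold or more in EV-ST486 cells (MYB and MYBL1 probes 1 and 2), where 12.1% of the kept probes did. In miR-155-ST486 cells 3 did on quantile-normalized signals detected in both fractions (MYB and MYBL1 probes 1 and 3), against 12.2%. Of these, MYBL1 probe 3 was detected in Cy3 only, and with normexp correction its ratio was between 0.98 and 1.15. MYBL1 probe 2 had only its bound, which is below 2 and on normexp-corrected levels. With every kept member on the correction of the bound, 2 of 5 passed 2 in each vector (MYB and MYBL1 probe 1). The shares of all kept probes were then 4.93% (EV) and 6.97% (miR-155). On quantile-normalized signals, MYB and MYBL1 probe 1 were past 2 in both vectors, against 10.2% of all kept probes. MYBL1 probe 3 was past 2 in both vectors from Cy3 alone (2.01 and 2.30), and its lower EV mean of 1.36 includes undetected Cy5 signals. With 4 of 6 member probes on 1 transcript, these are not independent counts. No member fell to a ratio of 0.5 or less in either vector, where 10.0% (EV) and 9.83% (miR-155) of the kept probes lay. Median IP/T ratios over the 5 kept member probes were 4.46 (EV) and 6.65 (miR-155), the latter being MYBL1 probe 2 over its undetected T signal. With that probe at its bound of 1.49, on normexp-corrected levels, the miR-155 median was 2.79. This is the quantile-normalized ratio of the dim MYBL1 probe 3, which was 1.15 under the same correction as the bound. The EV median of 4.46 takes that probe on quantile-normalized signals, where its normexp value under the same correction was 1.42. The values 4.46 and 2.79 are therefore not on 1 scale. With all 5 probes on that correction, the EV ratios were 4.42 (MYB), 5.88, 1.42 and 1.03 (MYBL1 probes 1 to 3) and 0.55 (MYBL2). In miR-155-ST486 cells they were 5.98, 8.22, 1.49, 1.15 and 0.70. The medians on that scale were thus 1.42 and 1.49. Over all kept probes the medians were 0.90 and 0.88 on quantile-normalized signals, and 0.99 in both vectors on that correction.

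**Figure D2:**
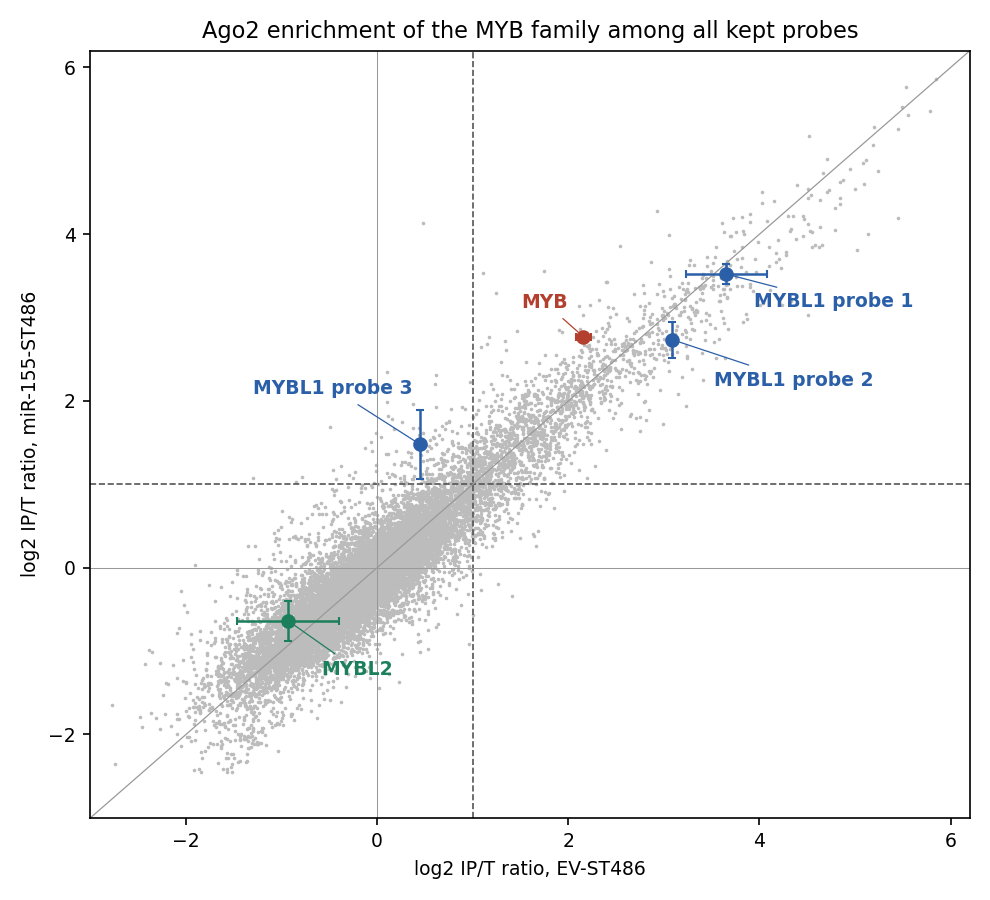
Log2 IP/T ratio of each kept probe in EV-ST486 (x axis) and miR-155-ST486 cells (y axis), with 15529 probes in grey and the 5 kept MYB family probes in colour. Error bars run between the dye orientations, dashed lines mark a 2-fold enrichment, and the diagonal marks equal ratios. MYB lay above the diagonal at 2.16 and 2.77, MYBL1 probe 1 just below it at 3.65 and 3.52, and MYBL2 in the lower left at -0.93 and -0.64. The point of MYBL1 probe 2 rests on a T signal that was not above background in miR-155-ST486 cells, where only a bound was available.

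The second question was whether ectopic miR-155 moved the members, read from the miR-155/EV ratio, that is, the IP/T ratio with ectopic miR-155 divided by the ratio with the empty vector. For MYB it was 1.53, with 1.4 and 1.66 on the arrays with T and with IP in Cy3, and 1.53 and 1.52 from the Cy3 and the Cy5 channels alone. The IP signal was 1.48-fold that of EV-ST486 cells (1.42 and 1.55), and the T signal 0.97-fold (1.01 and 0.93). The higher ratio of MYB was thus carried by the IP fraction, whose labellings did not overlap between the vectors. It remained below the 2-fold threshold that 1.15% of the kept probes reached. Ratios of 1.5 and more were seen for 4.37% of the kept probes and for 2.82% of those detected in all 8 channels. The difference between dye orientations was 0.25 on the log2 scale for MYB. The median was 0.26 over probes detected in all 8 channels, as MYB was, and 0.30 over all kept probes.

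For the bright probes of MYBL1 and MYBL2 the dye orientations did not give one direction. For MYBL1 probe 1 the miR-155/EV ratio was 0.91, but 0.74 and 1.13 in the dye orientations, and it was 1.28 from the Cy3 and 0.65 from the Cy5 channels alone. MYBL2 had a ratio of 1.22, with 1.5 from the array pair with T in Cy3 and 1.00 from the other. No such ratio could be given for MYBL1 probe 2, whose T signal was not above background with miR-155. MYBL1 probe 3 was the only kept member at or past 2-fold, with 2.05. Its dye orientations gave 1.59 and 2.63 and its single dyes 1.15 (Cy3, detected) and 3.65 (Cy5, not detected in any sample). With normexp correction, loess and Aquantile its ratio was 0.97. No kept member was at 0.5 or less, where 0.477% of the kept probes lay.

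In the total fraction no kept member changed by 2-fold between the vectors, in either direction, beside 0.676% of the kept probes that were higher and 0.38% that were lower in miR-155-ST486 cells. Ratios of T between the vectors (miR-155 over EV) were 0.97 for MYB, 1.06 for MYBL1 probe 1 (1.00 and 1.13) and 0.79 for MYBL2 (0.80 and 0.78). For MYBL1 probe 2 the value of 1.40 (0.94 in Cy3 and 2.07 in Cy5) rests on a T signal not above background with miR-155. For the dim MYBL1 probe 3 the T ratio was 0.62, with 0.94 in Cy3, where it was detected, and 0.41 in Cy5, where it was not, beside an IP ratio of 1.26 (1.07 in Cy3 and 1.49 in Cy5). Fewer cells with a transcript and less of it per cell cannot be told apart in such bulk RNA. In the IP fraction 0 of 5 passed 2-fold as well, where 1.28% of the kept probes were higher and 1.05% lower. IP ratios were 0.97 for MYBL1 probe 1 (0.73 and 1.28) and 0.96 for MYBL2 (1.19 and 0.78), with orientations on both sides of 1.

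**Figure D3:**
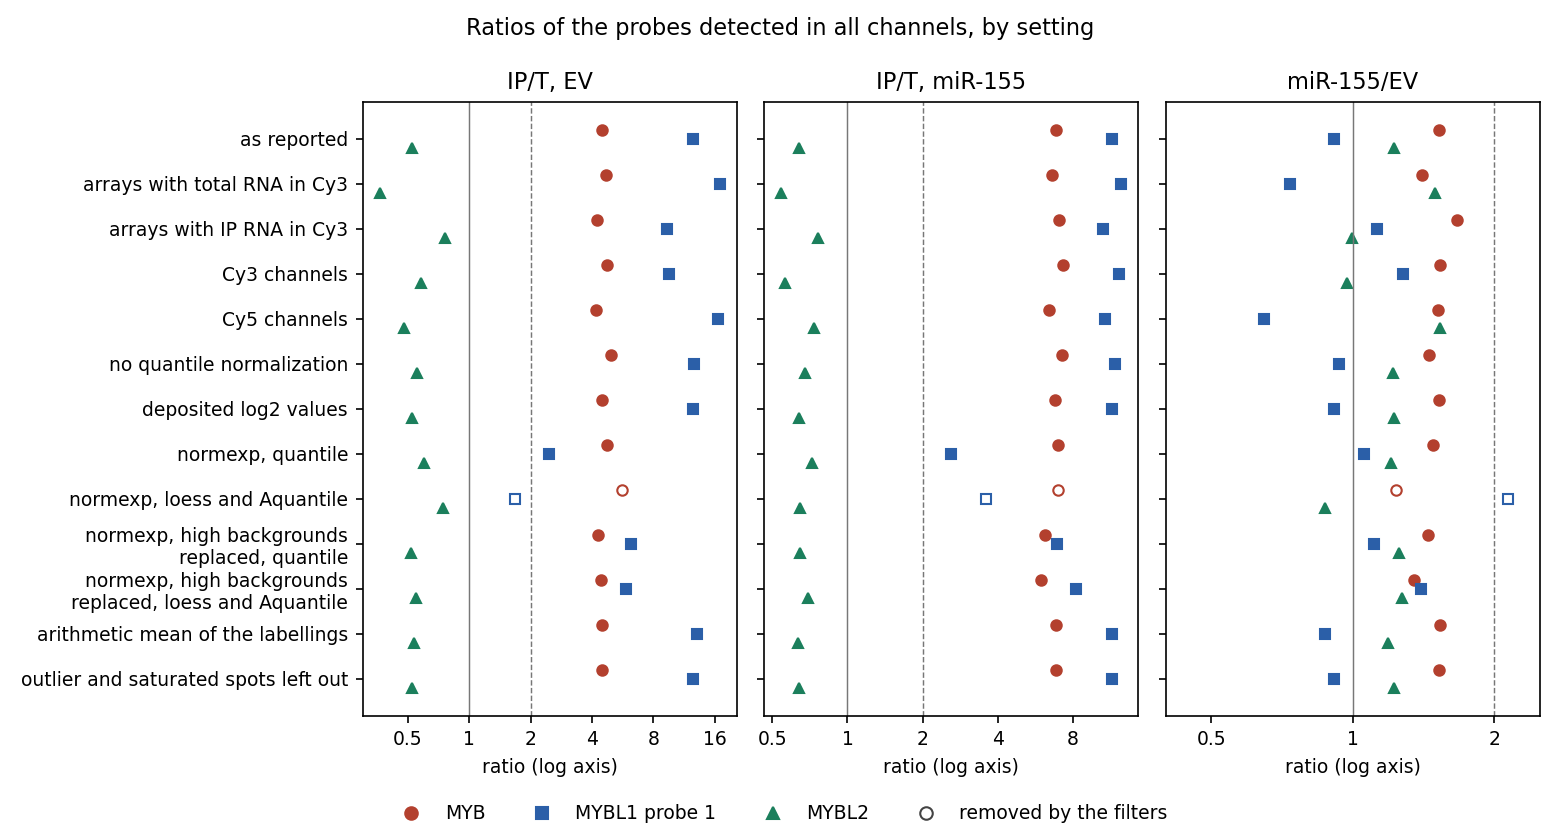
IP/T ratios with the empty vector and with miR-155, and the miR-155/EV ratio (log axes), of the member probes detected in all channels, as reported and under 12 alternative settings. Open symbols were removed by the filters of that setting, solid lines mark a ratio of 1 and dashed lines 2. MYB stayed above 4 in EV-ST486 cells and between 1.24 and 1.66 in the miR-155/EV panel, MYBL2 stayed below 1 in both IP/T panels, and MYBL1 probe 1 moved most with the normexp settings.

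The probes most like each member were sought by the Euclidean distance between log2 signals over the 8 channels, each probe centred on its own mean, among 11043 kept probes with a gene symbol. Closest to MYB were JADE1 at a distance of 0.26, TBCC at 0.29 and ATP6V0E1 at 0.34. JADE1, a subunit of a histone acetyltransferase complex, had IP/T ratios of 4.78 (EV) and 6.82 (miR-155). MYBL1 probe 1 was nearest to PARD6B, a cell polarity protein, at 0.41 (12.5 and 12.1), then to TNRC6A at 0.47 and EPB41L4B at 0.51. TNRC6A, a GW182 protein that binds Argonaute, had IP/T ratios of 12.1 and 9.66. MYBL2 was closest to ABHD14A at 0.16, to TCF7, a T cell and Wnt pathway transcription factor, at 0.18 and to DNPEP, an aminopeptidase, at 0.18.

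Distances between members are those of fixed pairs. The neighbours above are the 3 nearest of 11043 probes, so the 2 kinds of distance cannot be compared in size. MYB lay at 1.16 from MYBL1 probe 2, at 1.82 from MYBL1 probe 1 and at 4.70 from MYBL2, and MYBL1 probe 1 lay at 6.31 from MYBL2. The MYBL1 probes 1 and 2 were 1.23 apart, and probes 1 and 3 were 4.01 apart. Nearest to MYBL1 probe 2 were CCNYL1 (0.14), ANKRD11 (0.45) and EEIG1 (0.47), and nearest to probe 3 were NARF (0.55), OPRD1 (0.59) and RPS14 (0.61). All distances of MYBL1 probes 2 and 3 include channels in which these probes were not detected. All channels share 4 hybridizations, so likeness over them carries the arrays' own errors.

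Lists of the pathway gave the context for these values. Beside each list stand the shares of all kept probes, 12.1% (EV) and 12.2% (miR-155) at an IP/T ratio of 2 or more. At 0.5 or less these shares were 10.0% and 9.83%. Of 13 MuvB and DREAM partners, the proteins that MYBL2 works with and their quiescence counterparts, 11 had kept probes, 15 in all. With the empty vector, 2 of the 15 probes reached an IP/T ratio of 2 and 2 were at 0.5 or less, with a median of 1.08. In miR-155-ST486 cells the counts were 4 and 1, with a median of 1.05. Both probes that reached 2 only with miR-155 were of 1 gene, LIN9 (2.20 and 2.05). E2F5, a repressive E2F protein, had ratios of 14.1 with the empty vector and 13.2 with miR-155, and LIN54, the DNA-binding subunit of MuvB, had 4.47 and 3.82. LIN9, the MuvB subunit that holds MYBL2 in the complex, was the only list gene with a probe at or past a 2-fold miR-155/EV ratio. Of all kept probes 1.15% were 2-fold higher in that ratio, and 1 probe over all the lists is near that share. The LIN9 probe had IP/T ratios of 1.08 without and 2.20 with ectopic miR-155. The second divided by the first was 2.05 (2.61 and 1.6 in the dye orientations), and the EV IP signal was detected in 1 of 2 labellings. The other LIN9 probe gave 1.43.

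Among the 20 G2/M genes of the MYBL2-MuvB-FOXM1 programme, 19 had kept probes, 22 in all. In each vector 3 of the 22 probes were past 2 and 3 were at 0.5 or less, of which 2 and 1 were so in both vectors, and the medians were 0.81 (EV) and 0.86 (miR-155). Past 2 were 12.1% (EV) and 12.2% (miR-155) of all kept probes, and at 0.5 or less 10.0% and 9.83%, so these counts lay near the shares. CDC25C, a phosphatase that activates CDK1, had IP/T ratios of 5.80 and 4.88, and CCNB1, the mitotic cyclin B1, 2.07 and 2.68. None of the 22 changed its IP/T ratio by 2-fold between the vectors. The median T ratio, miR-155 over EV, was 1.19 for this list and 1.15 for the MYB coactivators and modifiers. It was 1.04 for the MuvB and DREAM partners, 1.02 for the MYB targets and 1.01 for the other Myb or SANT genes. Over kept probes with a gene symbol it was 1.03, and over all kept probes 1.01. In the G2/M list 1 probe was past 2-fold, at 2.09.

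The 13 coactivators and modifiers of MYB had 11 kept probes of 10 genes, of which 3 were enriched 2-fold or more in the IP of each vector and 0 were at 0.5 or less. These were CEBPB, a partner of MYB on myeloid promoters, with IP/T ratios of 9.99 (EV) and 10.2 (miR-155), FBXW7, the ubiquitin ligase subunit that recognizes MYB, with 9.32 and 9.35, and the kinase PIM1 with 7.97 and 5.88. The other 8 probes of the list ranged lower, and the list medians were 0.93 (EV) and 0.88 (miR-155). Of all kept probes, 12.1% and 12.2% were enriched 2-fold or more. Of 10 genes known as MYB targets, 5 had kept probes, 6 in all. Here 3 of the 6 reached a ratio of 2 with the empty vector and 5 with miR-155, against 12.1% and 12.2% of all kept probes, with medians of 2.67 and 3.20. The probes that reached 2 only with miR-155 lay close to it in both vectors, at 1.61 and 2.14 and at 1.84 and 2.22. CCNE1, or cyclin E1, had ratios of 15.0 and 17.7, and both probes of MAT2A, an S-adenosylmethionine synthetase, were enriched (3.87 and 4.61, 5.96 and 6.12).

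Of 24 other genes with a Myb or SANT domain, 22 had kept probes, 32 in all, with medians of 0.88 in both vectors. An IP/T ratio past 2 was found for 3 probes (EV) and 2 probes (miR-155), and one of 0.5 or less for 3 and 5. DMTF1, a cyclin D-binding relative of MYB, had IP/T ratios of 11.6 and 14.4, and RCOR1, the CoREST corepressor, 3.09 and 4.55. For comparison, 1414 (EV) and 1438 (miR-155) of the 11044 kept probes with a gene symbol were enriched 2-fold or more, and 956 and 885 were at 0.5 or less. No list probe besides that of LIN9 changed its IP/T ratio by 2-fold between the vectors, where 1.15% of all kept probes were higher and 0.477% lower.

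**Figure D4:**
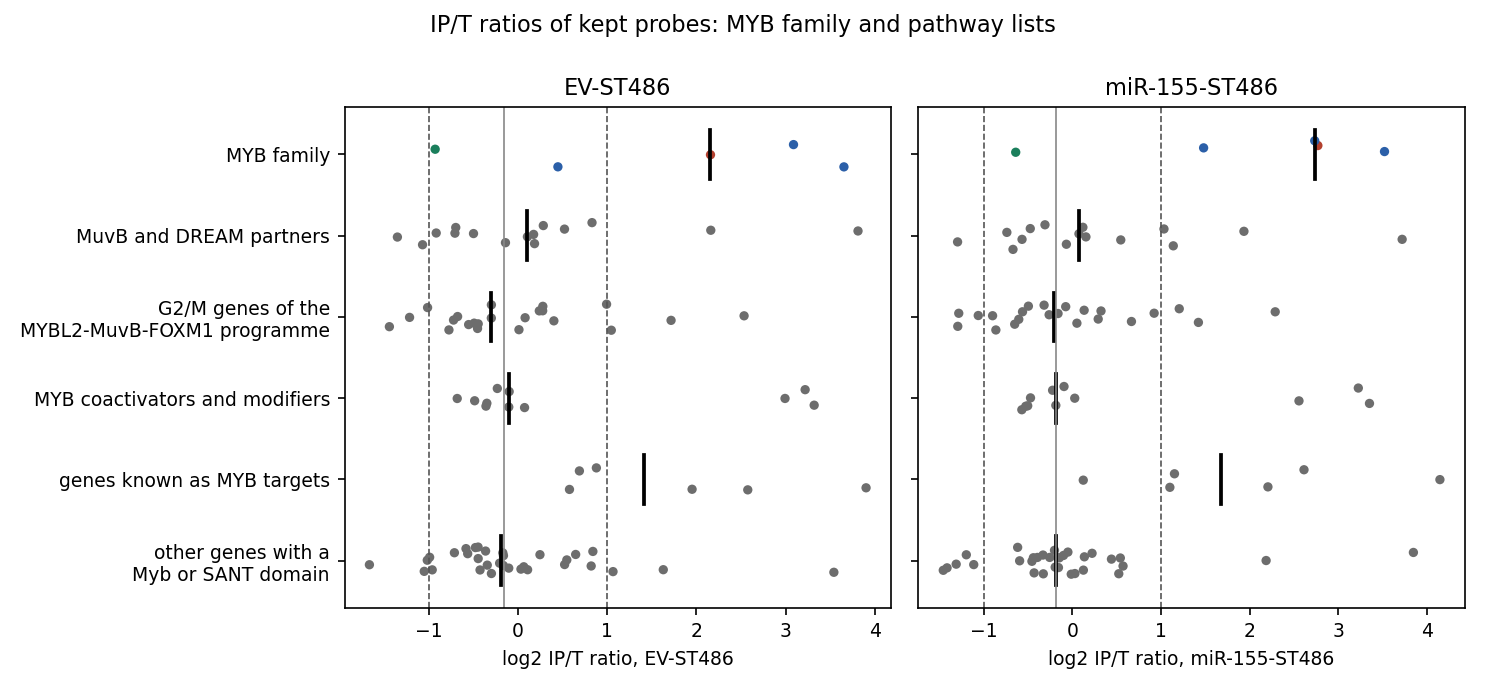
Log2 IP/T ratios of the kept probes (points) of the MYB family and of 5 pathway lists in EV-ST486 (left) and miR-155-ST486 cells (right). Short black lines are list medians, the grey line is the median of all kept probes (-0.15 and -0.18) and dashed lines mark a 2-fold difference. Among the family, MYB is red, MYBL1 blue and MYBL2 green, the miR-155 value of MYBL1 probe 2 and the family median there rest on an undetected T signal, and 4 of the 5 family probes lay above the median of all kept probes in both vectors.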

How the data were processed

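The authors extracted the intensity values of the arrays with Agilent Feature Extraction 10.5.1.1, which per the file headers subtracted the background and normalized the dyes of an array to each other, and also deposited quantile-normalized log2 values of 14453 probes. Here the processed signals of 41000 probes were averaged per probe, floored at 1, log2-transformed and quantile-normalized over the 8 channels. A channel counted as detected where the signal was well above background and also positive and significant. Kept were 15529 probes, those with 4 or more detected channels whose labellings differed by no more than 2-fold, and labellings were averaged on the log2 scale. Of the deposited log2 values, 99.9% lay within 0.05 of these. Symbols came from RefSeq identifiers, which matched 23958 probes. Bounds used normexp-corrected levels with high local backgrounds replaced, after loess and Aquantile.

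Because each condition had n = 1, values and folds are given without tests, and the number of arrays limits the precision. Members and lists were chosen with earlier results of these data known. Named were all member probes, list genes past 2-fold in the miR-155/EV ratio or past an IP/T ratio of 2 in both vectors, and the 3 kept probes nearest to each kept member. Alternatives were single orientations and dyes, other background corrections, normalizations, averages, filters and thresholds of 1.5 and 3. Some marker genes are not reported here. The procedure was tested on simulated data. The software was R 4.3.3 with limma 3.58.1, and Python 3.11.15 with matplotlib 3.10.9, pandas 2.3.3 and numpy 2.4.6.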

Additional observations from a re-analysis of the deposited data

How the results depend on the processing

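Under all 12 alternatives that recompute ratios, the IP/T ratio of MYB stayed between 4.21 and 5.64 with the empty vector and between 5.98 and 7.26 with miR-155, its miR-155/EV ratio above 1 and below 2, and both IP/T ratios of MYBL2 below 1. With normexp, loess and Aquantile, MYB and MYBL1 probe 1 were removed by the dye filter, MYBL1 probe 3 reversed to an IP/T ratio of 0.98 in miR-155-ST486 cells and a miR-155/EV ratio of 0.97, and 0 of the 3 kept member probes were enriched 2-fold or more in either vector, where 0.767% (EV) and 2.23% (miR-155) of all kept probes were. Elsewhere the count past an IP/T ratio of 2 fell to 2, from 3 with the empty vector and from 4 (MYBL1 probe 2 counted over its undetected T signal) with miR-155, with normexp and quantile normalization (all kept probes 2.28% and 2.44%), with high local backgrounds replaced under quantile (6.05% and 6.26%) or loess and Aquantile (4.93% and 6.97%), and with detection in all 8 channels (11.5% and 12.0%). The 1 member probe past 2-fold in the miR-155/EV ratio became 0 with the deposited values, which lack it, with each normexp setting, arithmetic means, detection in at least 5 or in all 8 channels and a threshold of 3. In these settings 0.12% to 1.11% of all kept probes passed. With a threshold of 1.5 it became 2, against 4.37% of all kept probes. That threshold also gave 1 probe of 5 lower in IP/T in each vector (MYBL2), near the shares of all kept probes, 25.9% (EV) and 26.8% (miR-155). With single orientations or dyes, the counts ranged from 0 to 1 for a higher miR-155/EV ratio, for a lower IP/T ratio in EV-ST486 cells and for a lower miR-155/EV ratio. The shares of all kept probes there were 1.22% to 3.59%, 8.91% to 14.7% and 0.856% to 4.2%. The median log2 IP/T ratio of all kept probes in EV-ST486 cells was -0.15 as reported and 0.00 with normexp, loess and Aquantile. Without the dye filter, 2.07% of probes were 2-fold higher and 3.53% lower in the miR-155/EV ratio. The causes were not tested. No paired analysis was possible because each condition has 1 RNA sample. Values of MYBL1 probes 2 to 4 are limited by signals near background, and all values by 4 arrays, on which slide and vector coincide.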
